A study of Mus musculus with 3 samples.

Results

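The open chromatin described here lies around 7 genes with roles in patterning the limbs or the body wall, Tbx15, Tbx5, En1, Prrx1, Shox2, Pitx1 and Twist1. They were grouped as subcutaneous and limb patterning genes, and the lists do not bear out the subcutaneous label for all of them. Pitx1 (1 site each) and Twist1 (4 each) had as many sites in eWAT as in iWAT. At Prrx1 the share of sites in the top 25% of their own list was largest in eWAT (12 of 22). iWAT had more sites there, and more in the top 25% (16 of 38). Members were the DNase I hypersensitive sites whose midpoint fell in 1 fixed window per gene, in mm9 coordinates. The windows ran from 98950000 to 99250000 on chromosome 3 (Tbx15), from 120200000 to 120420000 on chromosome 5 (Tbx5), from 122400000 to 122600000 on chromosome 1 (En1) and from 165100000 to 165700000 on chromosome 1 (Prrx1 and the stretch upstream of it). The others ran from 66700000 to 66860000 on chromosome 3 (Shox2), from 55850000 to 56020000 on chromosome 13 (Pitx1) and from 34560000 to 34730000 on chromosome 12 (Twist1). They held 154 of the 172496 sites in the 3 lists: 76 of 63214 in iWAT, 47 of 48308 in BAT and 31 of 60974 in eWAT. The windows were chosen by site positions, normalized tag counts and ranks in the own list, with earlier results of these lists known, so differences between depots in those measures are descriptions and were not tested. The first and last sites of the windows held 7.88 to 21.7 normalized tags in iWAT, 7.71 to 13.7 in BAT and 5.95 to 12.5 in eWAT. They lay up to 106.3 kb inside the edge in iWAT, 161.9 kb in BAT and 212.1 kb in eWAT. Windows without a site in a list (Tbx5 in BAT and eWAT, Shox2 in eWAT) gave none. The nearest sites beyond an edge held 8.87 to 45.3 in iWAT, 8.57 to 31.7 in BAT and 5.95 to 24.4 in eWAT. These lay up to 211.4, 238.3 and 492.8 kb outside it.

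DNase-seq maps open chromatin by sequencing DNA ends that the enzyme DNase I cuts in nuclei. There was 1 library for each of 3 mouse fat depots: inguinal white fat (iWAT), which lies under the skin of the groin, brown fat (BAT), pooled from interscapular, cervical and axillary depots, and epididymal white fat (eWAT), which lies in the abdomen. In each depot the stromal-vascular cells, which contain the fat cell precursors, came from male NMRI mice aged 4 to 5 weeks. All 3 cultures were differentiated in DMEM with 10% newborn calf serum, 30 nM insulin, 1 µM rosiglitazone (an activator of the fat cell regulator PPARγ), ascorbate, HEPES, glutamine, penicillin and streptomycin, and were harvested 8 days after plating. Only cultures with more than 50% differentiated cells were used, so a library may hold both fat cells and undifferentiated cells. With 1 library per depot, a difference between depots and one between libraries cannot be told apart. Fewer open cells and less open chromatin per cell cannot be told apart in such mixtures. Each list gives, per site, the authors' normalized tag count, that is the number of sequenced DNA ends in the site scaled by the library, from which whole tags were recovered. A stretch without a listed site may still be open below the calling limits. Defining markers of the cell types were not analysed here, because mm9 gene positions were not used.

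T-box and homeodomain factors set the position of cells in the embryo, and many mesenchymal cells keep a trace of that position in their chromatin after birth. Tbx15 encodes a T-box factor that is high in subcutaneous and brown fat and low in epididymal fat of mice. Prrx1 encodes a paired-related homeodomain factor of limb bud mesenchyme, and a Prrx1-driven Cre labels precursors of subcutaneous fat in mice. Shox2, a homeodomain gene of the proximal limb, is known as a subcutaneous fat gene. En1 encodes a homeodomain factor that patterns the ventral limb and marks dermomyotome cells that give rise to dermis, muscle and interscapular brown fat. Tbx5 starts forelimb growth and Pitx1 sets hindlimb identity. Twist1, a basic helix-loop-helix factor of mesoderm, restrains the thermogenic programme of brown fat in mice.

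The gene table at hand is in GRCm38, a later build, so it served only for names and gene order. The protein-coding neighbours in it were Wars2 and Spag17 for Tbx15, Tbx3 and Rbm19 for Tbx5, Marco and Insig2 for En1, and Mroh9 and Gorab for Prrx1. Shox2 lay between Ptx3 and Rsrc1, Pitx1 between Catsper3 and Macroh2a1, and Twist1 between Ferd3l and Hdac9. A window may hold parts of such neighbours, and no site is assigned to a promoter, an exon or an intron. The sequences of the sites themselves were not used here, since they need the mm9 genome.

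RefSeq's GRCm38.p6 table of promoters matched 4 of the 7 genes, En1, Prrx1, Shox2 and Twist1. Many homeodomain proteins recognise the core TAAT, which on both strands occurred in the 250 bases before the annotated start of Prrx1 (4 times) and Shox2 (1 time), and in 54.9% of the 32851 promoters of that table. Both are shown because they hold this core and belong to windows in which iWAT listed more sites than BAT or eWAT, with TAAT or its complement ATTA in capitals; in Prrx1 one pair of matches overlaps. Prrx1 is on the minus strand at chr1:163313651-163313900 and Shox2 on the minus strand at chr3:66981772-66982021, both in GRCm38.p6, which is not the scale of the site positions.
Prrx1: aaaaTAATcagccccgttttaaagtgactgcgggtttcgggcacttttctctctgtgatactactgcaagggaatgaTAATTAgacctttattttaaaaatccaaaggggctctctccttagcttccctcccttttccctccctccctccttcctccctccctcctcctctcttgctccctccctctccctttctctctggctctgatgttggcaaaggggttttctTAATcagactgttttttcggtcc
Shox2: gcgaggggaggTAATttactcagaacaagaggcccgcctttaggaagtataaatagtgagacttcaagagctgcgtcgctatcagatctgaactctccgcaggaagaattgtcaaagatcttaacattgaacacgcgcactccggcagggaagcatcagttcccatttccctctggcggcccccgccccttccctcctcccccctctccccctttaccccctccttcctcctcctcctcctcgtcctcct
The ratio of observed to expected CpG dinucleotides in these stretches was 0.98 for En1, 0.74 for Twist1, 0.63 for Shox2 and 0.32 for Prrx1, where the median promoter had 0.37. En1, Twist1 and Shox2 were thus above the median promoter and Prrx1 was slightly below it. E-boxes (CANNTG) occurred in 1 of the 4 promoters and in 66.2% of all, and the T-box half-site GGTGTGA in none of the 4 and in 3.33% of all. A match is a description of letters, and no site of the 3 lists was placed in these promoters.

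Across the 7 windows iWAT listed the most sites and eWAT the fewest. Over the 1.82 Mb of the windows, the density was 41.8 sites per Mb in iWAT, 25.8 in BAT and 17.0 in eWAT, against 24.6, 18.8 and 23.7 per Mb between the first and the last sites of all chromosomes. By window, the iWAT density was 66.7 at Tbx15, 63.3 at Prrx1, 35.0 at En1 and 25.0 at Shox2. It was 23.5 at Twist1, 9.09 at Tbx5 and 5.88 at Pitx1. On a grid over the genome, the median window held 4 iWAT sites at 160 and 170 kb, and 5 at 220 kb. Shox2, Twist1, Pitx1 and Tbx5, which have these widths, held no more than that. Merging sites of different lists wherever they met, by overlap or by touching, gave 94 regions here and 99297 in the genome. A region held by 1 list only is called restricted to it, which 56 of the 94 (59.6%) were, against 51.5% of all regions. Of the 94 regions, 42 (44.7%, exact 95% interval 34.4 to 55.3, counting error only) were restricted to iWAT, where 20.5% of all regions are. Another 12 (12.8%, interval 6.77 to 21.2) were restricted to BAT, where 11.4% of all regions are, and 2 (2.13%, interval 0.259 to 7.48) to eWAT, where 19.6% are. Since the windows were chosen with these positions known, nothing is read from the distance of these shares to the background.

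Shared regions were of uneven kinds too. All 3 lists held 22 of the 94 regions (23.4%), close to the 25.2% of the genome. iWAT and BAT together held another 9 regions (9.57%, against 6.73% of all), BAT and eWAT 4 (4.26%, against 5.32%), and iWAT and eWAT 3 (3.19%, against 11.3%). Seen from the lists, 31 of the 76 iWAT sites (40.8%) met a BAT site, where 49.1% of all iWAT sites do, and 25 (32.9%) met an eWAT site, where 56.0% do. Of the 47 BAT sites, 31 (66.0%) met an iWAT site, against 64.2% of the whole list, and 25 (53.2%) an eWAT site, against 61.4%. The few eWAT sites were mostly shared: 25 of 31 (80.6%, interval 62.5 to 92.5) met an iWAT site, against 58.1% of the list, and 25 met a BAT site, against 48.6%.

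**Figure D1:**
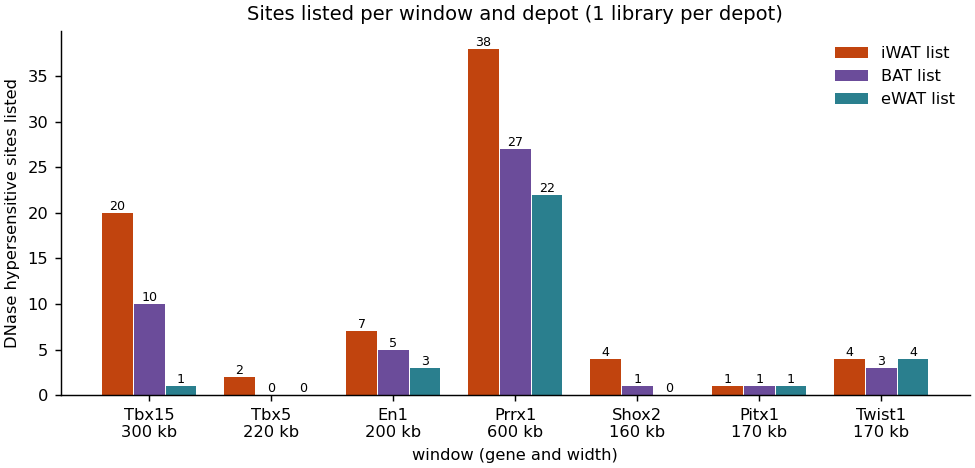
Bars give the number of hypersensitive sites listed in each gene window (x axis, with the window width in kb) for iWAT, BAT and eWAT, 1 library each. iWAT lists more sites than eWAT at Tbx15 (20 against 1), Shox2 (4 against 0), En1 (7 against 3), Prrx1 (38 against 22) and Tbx5 (2 against 0), and as many at Pitx1 and Twist1.

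The Tbx15 window showed the widest gap between depots in the number of sites. iWAT listed 20 sites there, BAT 10 and eWAT 1. The sites covered 4440 bp in iWAT, 2220 bp in BAT and 220 bp in eWAT, with mean normalized tag counts of 15.4, 11.3 and 5.95, each relative to its own library. Of all 300 kb windows on a grid over the genome, 4.38% held at least 4 iWAT sites and at least 2 times as many as in eWAT, 12.5% did so for iWAT over BAT, and 1.37% for BAT over eWAT. Tbx15 met all of these limits, which were set after its counts were seen. It fell short of the limit for iWAT over BAT with lists of equal length (16 against 10 sites) and with windows lengthened (24 against 14) or shortened (19 against 10) by 10%. With the top 50% of each list, BAT had 3 sites and no longer met the limit over eWAT. Of its 24 regions, 14 were restricted to iWAT, 4 to BAT and none to eWAT, 5 were shared by iWAT and BAT, and 1 was in all lists.

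The iWAT sites at Tbx15 were spread over 211.9 kb with a median spacing of 9.49 kb, and were of middling strength. Strength is given as the percentile rank of the tag count in the depot's own list, where 50 is the median site. The median of the 20 iWAT sites was 49.0, that of the 10 BAT sites 18.0, and the eWAT site ranked at 3.80. Sites in the top 25% of their list are called strong, and 3 iWAT sites, 1 BAT site and no eWAT site at Tbx15 were strong. The highest iWAT site, at 99051717 to 99051939, held 30.5 normalized tags (31 tags, exact Poisson 95% interval 21.1 to 44.0), at percentile 90.2. No other list held it, and the nearest site was a BAT site 5266 bp away. The iWAT site at 99067460 to 99067682, with 25.6 normalized tags (26 tags) at percentile 84.5, was also restricted, with a BAT site 955 bp away. BAT had a strong site of its own between them, at 99058726 to 99058948, with 24.0 normalized tags (28 tags, interval 18.6 to 40.5) at percentile 87.2, and the nearest iWAT site was 6787 bp away. The strongest open sites of iWAT and BAT at Tbx15 thus stood at different positions of the same stretch. They stood 4.86, 4.81 and 5.90 times above their surroundings, close to the minimum of 4 in each list, and a site with richer surroundings would not be listed.

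All 6 regions at Tbx15 that both iWAT and BAT listed ranked higher in iWAT, and 5 of the 6 by at least 20 points. Of all regions with 1 site each in iWAT and BAT, 60.8% ranked higher in iWAT and 24.1% did so by at least 20 points. The region at 99080080 to 99080302 held 21 tags (20.7 normalized, percentile 75.1) in iWAT and 9 tags (7.71 normalized, percentile 3.75) in BAT. That at 99044665 to 99044887 held 19 tags (percentile 69.8) in iWAT and 9 tags (percentile 3.75) in BAT. The smallest difference was at 99101934 to 99102156, with 18 tags (percentile 66.7) in iWAT and 15 tags (percentile 52.9) in BAT. In 4 of the 6 regions the BAT site ranked at or below percentile 12.5.

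**Figure D2:**
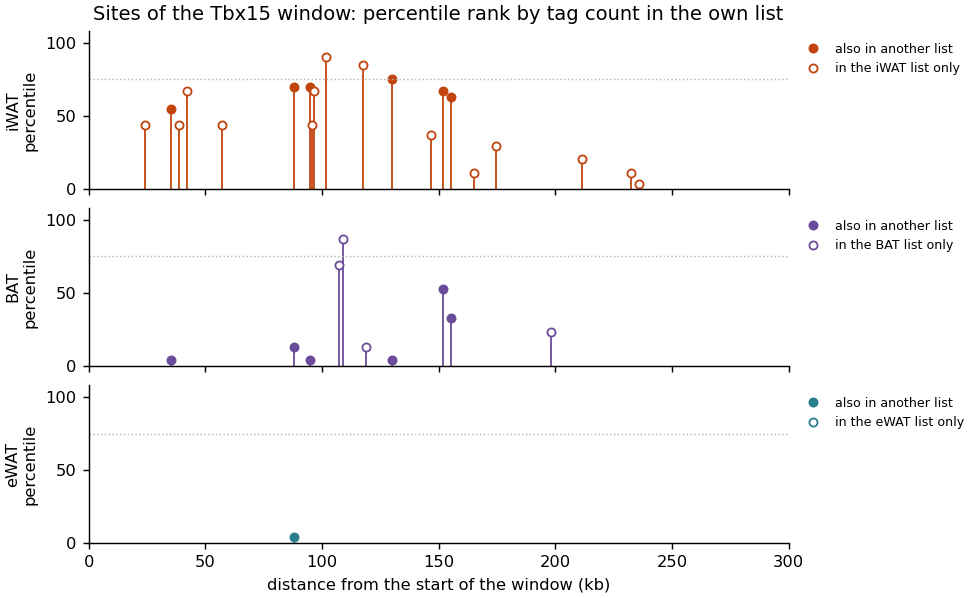
Each stem is a site of the Tbx15 window, at its distance from the window start (x axis, kb) and with its percentile rank by tag count in its own list (y axis), for iWAT (top), BAT and eWAT. Filled points are in another list as well, open points are restricted, and the dotted line is percentile 75, where the top 25% of a list starts. iWAT sites span 211.9 kb of the window, BAT sites 162.8 kb, and eWAT has 1 site at percentile 3.80.

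The only Tbx15 region listed in eWAT was common to all lists. It held 18.7 normalized tags in iWAT (19 tags), 8.57 in BAT (10 tags) and 5.95 in eWAT (10 tags), and ran from 99037809 to 99038058. Its percentile was 69.8 in iWAT (33.2 to 88.9 over the Poisson interval of its tags), 12.5 in BAT (0 to 67.7) and 3.80 in eWAT (0 to 61.8). The intervals overlap, which does not decide whether the ranks differ, and the difference was not tested. From that site eWAT listed nothing for 704.6 kb, from 99038030 to 99742667, and 0.454% of the stretches between neighbouring eWAT sites are as long. Here and at Shox2 and Tbx5, such a share counts stretches, whatever their length. Long stretches cover more of the genome each, so a larger share of positions lies in stretches as long. In each case the longest stretch that touched the window was taken. iWAT listed 24 sites in the same stretch, 5 of them strong, with a median percentile of 58.8, and BAT 12 with 1 strong and a median of 32.6. The longest stretch without a site that touched the window was 77.0 kb in iWAT and 115.0 kb in BAT. The stretch ran well past the window: 10 of the iWAT and 4 of the BAT sites lay beyond its end. On the other side the lists met again, with a site of each list centred 4.8 kb before the window, holding 45.3 normalized tags in iWAT, 24.8 in BAT and 24.4 in eWAT.

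The Shox2 window held 4 sites in iWAT, 1 in BAT and none in eWAT. Of all 160 kb windows, 4.63% held at least 4 iWAT sites and at least 2 times as many as in eWAT, and 12.5% did so for iWAT over BAT. Shox2 met both with exactly 4 sites and neither with lists of equal length (3 iWAT sites), the top 50% (2) or a fold of at least 6 (2). The highest iWAT site, at 66786604 to 66786826, held 24.6 normalized tags (25 tags, interval 16.2 to 36.9) at percentile 82.9 and was restricted, with a BAT site 2456 bp away. The next, at 66789302 to 66789524, held 23.6 normalized tags (24 tags) at percentile 81.3 in iWAT and met a BAT site of 10.3 normalized tags (12 tags) at percentile 32.6. Both stood 4.48 and 5.21 times above their surroundings. The other 2 iWAT sites ranked at percentiles 36.7 and 20.2 and lay 62.0 and 45.4 kb from any BAT or eWAT site. eWAT listed no site for 414.3 kb around the window, from 66502165 to 66916477, where iWAT listed 5 and BAT 3, and 1.18% of eWAT stretches are as long. The other lists also had long stretches without a site that touched the window. They reached 235.9 kb in iWAT and 246.7 kb in BAT, and 2.49% and 3.67% of the stretches of these lists are as long. The iWAT stretch held 1 BAT and 1 eWAT site.

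In the Tbx5 window iWAT listed 2 sites, and BAT and eWAT listed none. The iWAT site at 120285630 to 120285852 held 19.7 normalized tags (20 tags, interval 12.2 to 30.9) at percentile 72.6, 6.57 times above its surroundings. The other, at 120318291 to 120318513, held 9.85 normalized tags (10 tags) at percentile 20.2. The nearest site of another depot was 164.7 and 197.4 kb away, in eWAT. Neither iWAT site was strong. Stretches without a site reached 220.2 kb in iWAT, 417.9 kb in BAT and 459.1 kb in eWAT. Of the stretches of each list, 2.79%, 1.68% and 0.991% are as long. In the BAT and eWAT stretches iWAT listed 7 and 9 sites, and the eWAT stretch also held 2 BAT sites.

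At En1 the lists were nearer to each other, and brown fat came close to inguinal fat. iWAT listed 7 sites, BAT 5 and eWAT 3, and 4.57% of 200 kb windows held at least 4 iWAT sites and at least 2 times as many as in eWAT. En1 met this limit, but not with the top 50% of each list (3 against 1 sites). The region with the most tags in iWAT and BAT, from 122498952 to 122499289, held 20.7 normalized tags in iWAT (21 tags, percentile 75.1), 19.7 in BAT (23 tags, percentile 79.5) and 8.33 in eWAT (14 tags, percentile 38.0). Its rank in BAT exceeded that in eWAT by 41.5 points, the largest such difference among the 22 common regions of the windows. The bounds of the 2 Poisson intervals allow a difference between -26.7 and 92.8 points. That range is wider than a 95% interval of the difference, which was not tested. The highest eWAT site of the window was another, at 122424036 to 122424256, with 10.7 normalized tags (18 tags, percentile 59.7), which met an iWAT site of 14 tags (percentile 49.4). Restricted regions numbered 3 in iWAT, 2 in BAT and 0 in eWAT, and none of them was strong. None of the 3 regions shared by iWAT and BAT ranked higher in iWAT, where 60.8% of all regions with 1 site each in both do. The median difference was -4.33 points. In 1 of the 3, which all lists held, BAT ranked at least 20 points higher, as in 10.8% of all common regions.

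The Prrx1 window, at 600 kb the widest, held 49 of the 94 regions, and it was rich in strong sites in every depot. iWAT listed 38 sites, BAT 27 and eWAT 22. Strong ones numbered 16 in iWAT, 13 in BAT and 12 in eWAT, or 42.1%, 48.1% and 54.5% of the window's sites, where 25.0% of each list are strong by definition. The median percentile was 66.7 in iWAT, 69.3 in BAT and 77.9 in eWAT. Of the 49 regions, 16 were in all lists, 19 were restricted to iWAT, 6 to BAT and 2 to eWAT. The iWAT count was below 2 times that of eWAT, a limit that 3.62% of 600 kb windows pass with at least 4 iWAT sites. Prrx1 passed it with the same minimum score (38 against 19 sites) and with a fold of at least 6 (23 against 10). The same minimum score left the iWAT list whole and removed sites only from BAT and eWAT.

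Of the 16 common regions at Prrx1, 8 were strong in all lists, where 26.1% of the common regions of the genome are. No common region of the other windows was. The site with the most tags in iWAT, from 165492369 to 165492591, held 56.2 normalized tags (57 tags, interval 43.2 to 73.9), at rank 692 of its list. The same region held 33.4 normalized tags in BAT (39 tags, rank 2244) and 30.3 in eWAT (51 tags, rank 1083). BAT had its highest site elsewhere, at 165312568 to 165312790, with 55.7 normalized tags (65 tags, interval 50.2 to 82.8), at rank 273. There iWAT held 34.5 normalized tags (35 tags, rank 4195) and eWAT 25.6 (43 tags, rank 2183). The percentile of this region was 93.0 in iWAT (82.2 to 97.8 over the Poisson interval) and 99.4 in BAT (98.1 to 99.8), the only pair of ranks among the 22 common regions whose counting intervals did not overlap. The highest eWAT site, at 165215574 to 165215794, held 34.5 normalized tags (58 tags, rank 595), with 52.2 in iWAT (53 tags, rank 929) and 28.3 in BAT (33 tags, rank 3775). The site with the most tags thus lay in a different common region in each depot, and all of these regions were within the top 10% of every list. In iWAT and eWAT the order of the highest sites was within counting error. eWAT also held 57 tags at 165333868 to 165334088, and iWAT held 53 tags at 165333850 to 165334072.

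The larger number of iWAT sites at Prrx1 lay mostly in its last 200 kb. In the first 200 kb, from 165100000 to 165300000, iWAT listed 10 sites, BAT 10 and eWAT 7. In the next 200 kb they listed 15, 13 and 12, and 10 of the common regions were there. In the last 200 kb, from 165500000 to 165700000, iWAT listed 13 sites, BAT 4 and eWAT 3, and 10 of the 13 were restricted to iWAT, as 32.1% of all iWAT sites are. Some of these restricted sites lay close to a site of another list, at 79, 188 and 277 bp. Over the whole window, iWAT-restricted regions fell from 19 to 12 when sites within 1000 bp were merged. Strong sites in that stretch numbered 3 in iWAT, 1 in BAT and 0 in eWAT. This division into 3 stretches was made after the positions were seen.

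**Figure D3:**
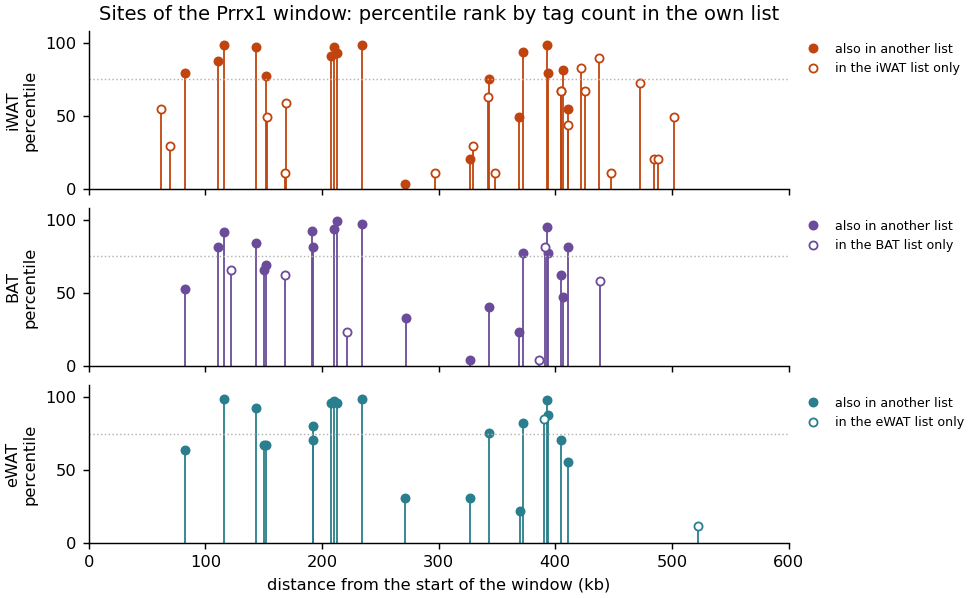
Each stem is a site of the Prrx1 window, at its distance from the window start (x axis, kb) and with its percentile rank by tag count in its own list (y axis), for iWAT (top), BAT and eWAT. Filled points are in another list as well, open points are restricted, and the dotted line is percentile 75. High filled stems stand at matching positions in all lists, mostly before the last 200 kb, where iWAT has 10 restricted sites.

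Sites at Prrx1 were high in tags but modest in contrast. The median tag density was 6.43 times that of the surroundings in iWAT, 6.89 in BAT and 5.87 in eWAT, where whole lists had medians of 9.91, 9.23 and 7.46. Ranked by that fold in place of tags, the median percentile of the window's sites was 18.5 in iWAT, 26.0 in BAT and 26.8 in eWAT. Pooled over the 7 windows, the median folds were also below those of the lists, at 7.07 in iWAT, 6.81 in BAT and 6.48 in eWAT. Prrx1 supplied 38 of the 76 iWAT, 27 of the 47 BAT and 22 of the 31 eWAT sites. Not every window shared this: at En1 the median fold was 9.93 in iWAT, 5.85 in BAT and 7.69 in eWAT. An exception at Prrx1 was the region from 165333850 to 165334107, which stood 21.2, 20.8 and 15.6 times above its surroundings in iWAT, BAT and eWAT at 52.2, 39.4 and 33.9 normalized tags. The share of tags in the sharpest part of a site (the focus ratio) differed little from the lists, with medians over the 7 windows of 0.68 in iWAT, 0.71 in BAT and 0.67 in eWAT against 0.70, 0.70 and 0.69.

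At Twist1 and Pitx1 iWAT listed as many sites as eWAT. The Twist1 window held 4 sites in iWAT, 3 in BAT and 4 in eWAT. With the top 50% of each list it held 4, 2 and 2, and with windows lengthened by 10% it held 6, 3 and 5. Under both settings iWAT had at least 2 times the BAT count, and with the top 50% also 2 times the eWAT count. With the full lists, 12.5% of 170 kb windows held at least 4 iWAT sites and at least 2 times as many as in BAT. For iWAT over eWAT the share was 4.85%. The shares under the altered settings are not given here. The Pitx1 window held 1 region, from 55928371 to 55928622, listed in all depots with 11 tags in each: 10.8 normalized tags in iWAT (percentile 29.0), 9.42 in BAT (percentile 23.4) and 6.54 in eWAT (percentile 11.8). With lists of equal length and with the same minimum score, iWAT and BAT kept this site and eWAT did not. With the top 50% no list kept it. At Twist1 the strong iWAT site at 34724497 to 34724719, with 26.6 normalized tags (27 tags) at percentile 86.0, counted as restricted. It lay 80 bp from a BAT site at 34724799 to 34725021, with 26.6 normalized tags (31 tags) at percentile 90.3, which met an eWAT site of 15.5 (26 tags) at percentile 82.0. Once neighbours up to 200 bp apart were joined, no iWAT-restricted region was left at Twist1. The region from 34666227 to 34666666 ranked highest in iWAT, with 22 tags (percentile 77.4), against 14 tags in BAT (percentile 47.1) and 15 tags in eWAT (percentile 44.4). The difference of 33.0 points between iWAT and eWAT had a range from -32.4 to 92.0 at the bounds of the Poisson intervals. That range is wider than a 95% interval of the difference, which was not tested.

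**Figure D4:**
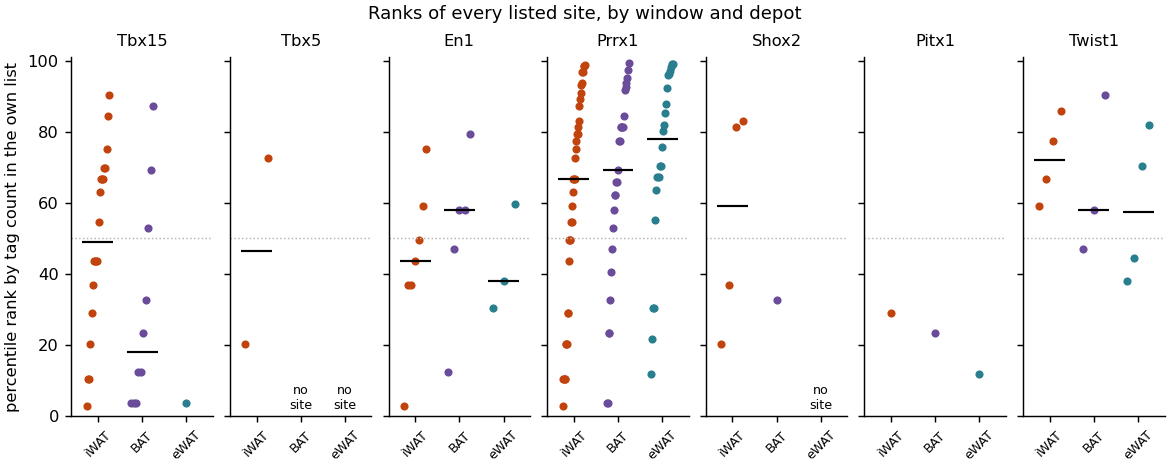
Points give the percentile rank by tag count in its own list (y axis) of every listed site, by window (panels) and depot (x axis). Black lines are medians where a list has more than 1 site, and the dotted line is the median site of a list. Prrx1 sites reach the top of all lists, and the single eWAT site at Tbx15 is at percentile 3.80.

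Restricted sites were mostly not strong, in the windows as in the whole lists. In the whole lists 1503 of 20317 restricted sites were strong in iWAT, 962 of 11332 in BAT and 1286 of 19482 in eWAT. Of the 42 iWAT sites restricted to that depot, 6 were strong, or 7.89% of the 76 iWAT sites against 2.38% of the whole list. In BAT there were 2 (4.26% of 47, against 1.99%) and in eWAT 1 (3.23% of 31, against 2.11%). Of these 9 sites, 5 lay within 1 kb of a site from another list. One pair was the BAT site at 165491038 to 165491260 (20.6 normalized tags, 24 tags) and the eWAT site at 165490591 to 165490811 (16.7 normalized tags, 28 tags), which lay 227 bp apart at Prrx1. Another was the iWAT site at 165537708 to 165537930 (29.6 normalized tags, 30 tags), which lay 79 bp from a BAT site. The iWAT site at 165521676 to 165521898, with 24.6 normalized tags (25 tags) at percentile 82.9, was the farthest of the 9 from any other list, with a BAT site 10.3 kb away. Of the 42 iWAT-restricted sites, 10 (23.8%) had a site of BAT or eWAT within 1 kb, where 37.2% of all iWAT-restricted sites do, and 22 (52.4%) within 10 kb, where 72.1% do. In BAT 4 of 12 (33.3%) had one within 1 kb, against 44.9%, and 10 of 12 within 10 kb, against 78.8%. Of the 2 in eWAT, 1 had a neighbour within 1 kb, where 34.2% do, and within 10 kb, where 68.2% do. The median percentile of the 42 iWAT-restricted sites was 43.5, against 29.0 for all iWAT-restricted sites.

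Where all lists held a region, neither iWAT nor BAT ranked above eWAT throughout. Of the 22 common regions, 11 ranked higher in iWAT than in eWAT, where 48.4% of all common regions do, and 11 lower, with a median difference of 0.22 points, where the median of all common regions was -0.48. Differences of at least 20 points in favour of iWAT over eWAT occurred in 4 of 22 regions, where 13.5% of all common regions have them, and the reverse in 1, where 14.4% do. iWAT ranked higher than BAT in 17 of 22, where 61.9% do, by a median of 5.06 points against 4.12 over all common regions, and by at least 20 points in 5, where 23.7% do, with the reverse in 3, where 10.8% do. When only common regions were ranked, iWAT was higher than BAT in 13 of 22 and lower in 9. The median difference was then 2.75 points, against 0.078 over all common regions. BAT ranked higher than eWAT in 10 of 22, where 38.1% do, with a median difference of -2.29, against -3.94 over all common regions. BAT exceeded eWAT by at least 20 points in 3 of 22, where 10.5% do, and the reverse held in 2, where 24.3% do. Outside Tbx15, the common region with the largest difference between iWAT and BAT was at Prrx1, from 165442948 to 165443348, with 21 tags (percentile 75.1) in iWAT, 13 (percentile 40.4) in BAT and 23 (percentile 75.6) in eWAT. The 16 common regions of Prrx1 and the other 6 differed in the medians against eWAT. Between iWAT and BAT the median was 5.60 points at Prrx1, with 13 of 16 higher in iWAT. In the other 6 it was 3.41 points, with 4 higher in iWAT. Of the other 6, 5 ranked higher in iWAT than in eWAT, with a median difference of 25.1 points and a range from -11.2 to 66.0, and 5 ranked higher in BAT than in eWAT, with a median of 10.2. At Prrx1, 6 of 16 ranked higher in iWAT than in eWAT, with a median of -0.46. This division was made after the values were seen, and the range of every iWAT and eWAT difference, taken from the interval bounds, included 0. In regions shared by 2 lists, the midpoints of their sites were a median of 35 bp apart for iWAT and BAT (31 regions), 30 bp for iWAT and eWAT (25 regions) and 29.5 bp for BAT and eWAT (26 regions).

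**Figure D5:**
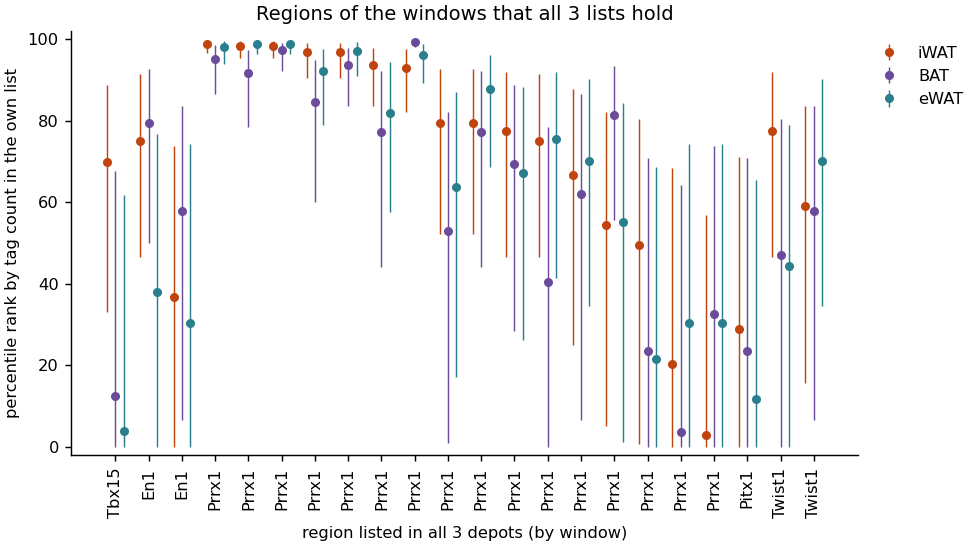
Points give the percentile rank by tag count in its own list (y axis) of each of the 22 regions that all 3 lists hold (x axis, by window), and bars the percentiles at the bounds of the exact Poisson 95% interval of the tag count. The bars of the depots overlap in every region except 1 at Prrx1, where BAT (99.4) lies above iWAT (93.0).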

How the data were processed

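Open chromatin was measured by DNase-seq in 3 libraries, 1 per depot, with nuclei digested at 120 U/ml DNase I per the labels' protocols. STAR, HOMER and the mm9 build appear in the submitters' processing notes, with no roles, versions or settings. The deposited lists hold 1 row per called site, in the column layout of HOMER's findPeaks. Each gives the authors' normalized tag count, a signal scaled to a library total that the files do not state. The authors' files also give a whole-number peak score, the focus ratio as a fraction, a fold (ratio) of tag density over the surroundings with its p-value, and a clonal fold. The lowest fold over the surroundings in each deposited list was 4. For library depth the sources used here hold no value. The normalized tag counts were whole multiples of 0.985 in iWAT, 0.857 in BAT and 0.595 in eWAT for over 99.9% of sites (tolerance 0.05, or 0.005 below 10), and these steps were taken as 1 tag; the median site then held 14, 14 and 16 tags.

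Windows, members and lists were chosen with earlier results of these data known. Sites met if they overlapped by at least 1 bp or touched. Tag counts were compared only as percentile ranks in the own list, since the scaling may differ; exact Poisson 95% intervals of the tags, and exact (Clopper-Pearson) intervals of shares, cover counting error only and ignore that a site had to pass the authors' calling. The range of a rank difference takes the lowest rank of one depot and the highest of the other, so it is wider than a 95% interval of the difference. Each depot has 1 library, whose variation between cultures is therefore unknown, and depots were compared without tests or p-values. Named were, per window and list, the site with the most tags, every strong restricted site and, per pair of depots, the 3 common regions whose ranks differ most; the other positions given were chosen after their values were seen. Marker and pathway gene lists were not analysed here, as they need mm9 gene positions. Counts over the genome used windows on a grid from each chromosome start with at least 1 site in any list. The merging code was tested on simulated lists. Python 3.11.15, numpy 2.4.6, pandas 2.3.3, scipy 1.17.1 and matplotlib 3.10.9 were used. Alternatives covered list length, minimum score, fold, merging, overlap, window limits and the ranked measure.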

Additional observations from a re-analysis of the deposited data

How the results depend on the processing

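The share of regions restricted to iWAT, 44.7%, ranged from 37.3% (lists of equal length) to 51.6% (same minimum score) over the alternatives. The genome's share was 16.1% and 31.4% under these settings. Every alternative used windows chosen with these lists known, so nothing is read from the distance to the genome's share. The same minimum score left all 63214 iWAT sites and cut BAT to 42606 and eWAT to 39039, which by construction favours iWAT. Without the Prrx1 window, a setting chosen after seeing the data, it was 51.1%, and without the Tbx15 window 40.0%. With the top 50% of each list, iWAT listed 47 sites in the windows and BAT 28, with 13 regions in all lists, 3 in iWAT and BAT, and 1 in eWAT only. With a fold of at least 6, iWAT listed 50 sites, BAT 26 and eWAT 19, with 8 regions in all lists and 4 in iWAT and BAT. The eWAT-only regions numbered 1 with the same minimum score and 1 when sites within 1000 bp were merged. These settings shorten the lists or join sites by construction. The other 80 values over the 7 windows stayed within 1.5 times, or within the counting interval of the share. Of the values for single windows, 145 stayed within 1.5 times and 44 did not; the BAT count at Tbx15 (10) was 5 with the same minimum score, 3 with the top 50% and 4 with a fold of at least 6. Of the comparisons with the limit of 4 sites and 2 times as many, 11 lost and 7 gained the call; beside those given with each window, En1 lost iWAT over eWAT with the top 50% (3 against 1 sites), met BAT over eWAT with the same minimum score (5 against 2) and met iWAT over BAT with a fold of at least 6 (6 against 2). With the full lists, 1.42% of 200 kb windows met the limit for BAT over eWAT and 12.6% for iWAT over BAT. The eWAT site at Tbx15 was lost with lists of equal length, with the top 50% and with the same minimum score, and 3 eWAT sites were listed there when windows were lengthened by 10%. Ranked by fold over the surroundings, 17 of 23 named sites left the counting interval of their percentile, and the iWAT site with the most tags at Tbx15 ranked at 4.99. None of the 9 rank differences of the named common regions changed sign when only common regions were ranked. Under 2 settings chosen after seeing the data, the median rank difference over the 22 common regions was 2.75 (iWAT minus BAT), 0.48 (iWAT minus eWAT) and -0.068 (BAT minus eWAT) when only common regions were ranked, and 3.41, 25.1 and 10.2 without the Prrx1 window, the last reversed from -2.29; the cause was not tested. Over all common regions of the genome, ranked among themselves, these medians were 0.078 (iWAT minus BAT), -0.30 (iWAT minus eWAT) and 0.0080 (BAT minus eWAT). No paired analysis was possible because each depot has 1 library. The median site of a list held 14 to 16 tags, which limits every rank.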
